A study of Mus musculus with 24 samples.

Results

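The genes described here encode the metalloproteases that cut extracellular matrix and cell surface proteins, and the proteins that inhibit them or share their domains. They are the rows of the deposited raw count table whose gene symbol begins with Mmp or Adam and a digit, or with Adamts, or reads Timp1 to Timp4. That rule took 76 of the 20351 protein-coding genes, without using any measured value. They were 20 matrix metalloproteases (MMPs), 28 ADAMs, 19 ADAMTS proteases, 5 ADAMTS-like genes and 4 tissue inhibitors of metalloproteases (TIMPs). Counts were high enough to test for 46 of them, namely 9 MMPs, 14 ADAMs, 14 ADAMTS, all 5 ADAMTS-like genes and all 4 TIMPs, and the other 30 are described by their counts.

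HL-1 cells, a contracting line of mouse atrial cardiomyocyte origin, were the source of the RNA sequenced. The purpose, by the title of the series, was to learn how Muscle Ring Finger-1 (MuRF1, a muscle ubiquitin ligase encoded by Trim63) takes part in the transcriptional answer to cyclic stretch. The 24 libraries formed 4 groups of 6. They were knockdown cells (adenovirus Adsh_MuRF1, a short hairpin RNA against MuRF1) stretched, knockdown cells not stretched, control cells (adenovirus with a scrambled hairpin) stretched, and control cells not stretched. All cells were thus infected, at 30 infectious units per cell for 48 h, on plates coated with gelatin and fibronectin, and were moved to medium without serum. Stretch was by 15% at 1 Hz for 60 min, called uniaxial in one label and biaxial in another, and RNA was taken directly after it. The knockdown rests on 1 hairpin against 1 scrambled sequence in 1 cell line. The labels do not say whether replicates were separate cultures, and the p-values then speak of the spread of these samples alone, possibly a technical one. All 6 library codes of a group carry 1 number, and each group has its own. Should that number stand for a plate or a batch, batch and group cannot be told apart.

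MMPs are zinc proteases that digest collagens, proteoglycans and other matrix proteins, and most are made as inactive precursors whose propeptide must be removed. ADAMs are mainly membrane-anchored and release the outer parts of growth factors, receptors and adhesion proteins, whereas ADAMTS proteases are secreted, bind matrix through thrombospondin repeats and cut proteoglycans, procollagens or microfibril proteins. ADAMTS-like proteins have the matrix-binding repeats without a protease domain, and TIMPs block the active site of MMPs and of several ADAM and ADAMTS proteases. In the heart these families are studied mostly for the turnover of matrix during remodelling.

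Summed estimated counts ran between 23.6 and 54.8 M per library, with 23 of the 24 libraries at 37.7 M or more. Stretched control replicate 5, the shallowest, stood apart from the other 23 also in its share of mitochondrial counts, at 1.45% against 2.49 to 3.67%, so members called in a comparison whose call is lost, or whose value moves by over 1.5 times, without it are given both ways. Trim63 stood at 54.2, 55.6 and 57.4 CPM (counts scaled to library size; lowest, median and highest of 6 libraries) in non-stretched knockdown cells, against 536, 641 and 707 CPM in non-stretched control cells. With stretch it stood at 60.0, 67.1 and 83.5 CPM in knockdown cells, against 687, 783 and 882 CPM in control cells. The groups did not overlap in either case, with 8.71% and 8.77% of the control level left and a two-sided exact permutation p of 0.00216 each, the smallest this design allows. As a check on the labelled cell type, the 10 cardiomyocyte markers listed summed to 2160.0 to 2431 CPM in non-stretched control cells. Of this list, Myh6 and Nppa were low there, at 5.00 to 6.85 and 0.328 to 0.641 CPM. The 5 smooth muscle markers listed summed to 2531 to 2759.7 CPM in the same cells, so these sums alone do not identify the cell type.

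The 76 genes together took a small part of each library. Their share of counts was 0.121% ± 0.00203 in stretched and 0.116% ± 0.00359 in non-stretched knockdown cells, against 0.153% ± 0.0059 and 0.153% ± 0.00177 in control cells with and without stretch (SD, n = 6 each). Knockdown libraries ran up to 0.124% and control libraries started at 0.149%, so the groups did not overlap. Such a sum follows its most abundant members and does not describe each gene. Among those, Timp2, Adamtsl3 and Adamts5 fell with knockdown, whereas Adam10 and Adam15 were not called, as given below.

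Levels can be compared between genes only per length, as CPM per kb of transcript. By mean CPM per kb in non-stretched control cells, 5 genes formed the top of the list. They were Timp2 at 60.0, Mmp14 at 48.9, Adam15 at 48.2, Adamtsl3 at 45.1 and Adam9 at 43.1, which placed Timp2 at the 88.7th percentile of all tested genes. Adam10 at 28.3, Adam17 at 18.9, Timp1 at 15.4 and Mmp11 at 14.1 CPM per kb followed, then Adamts5 at 11.9, Adamts1 at 11.0 and Adamts9 at 9.36. At the low end stood Mmp9 at 0.0465, Adam21 at 0.0325, Adam1b at 0.0313 and Adamts12 at 0.013. The abundant members were thus 1 inhibitor, 1 membrane-type MMP, the widely expressed ADAMs and 1 protease-free matrix protein.

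**Figure D1:**
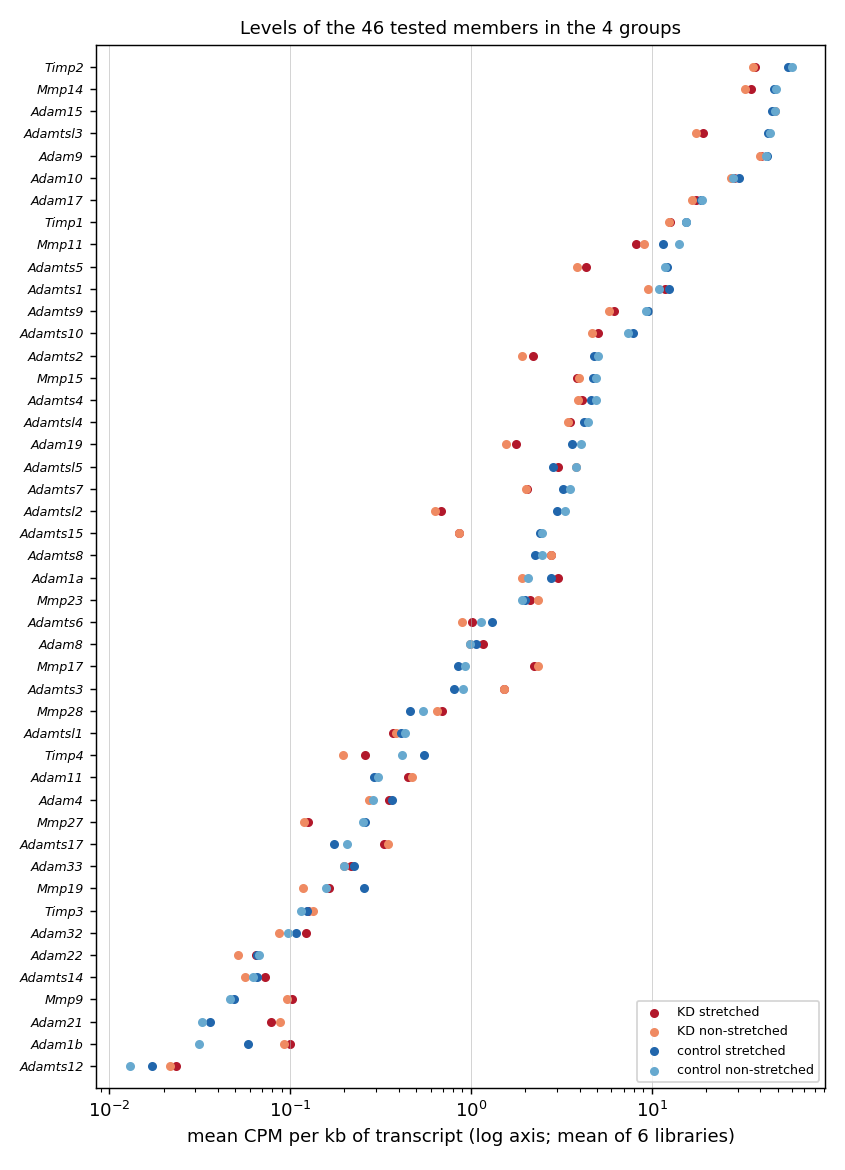
Mean level per transcript length (CPM per kb, log axis, each point the mean of 6 libraries) of the 46 tested members in stretched and non-stretched knockdown (KD) and control cells, ordered by the level in non-stretched control cells. Timp2 leads at 60.0 CPM per kb, Adamts12 is lowest at 0.013, and the red and orange knockdown points lie well left of the blue control points for Adamtsl3, Adamts5, Adamts2, Adam19, Adamtsl2 and Adamts15.

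The 30 members too low to test never exceeded 18 counts in a library. Among the MMPs these were Mmp2 (gelatinase A), Mmp24 and Mmp16 (both membrane-type), Mmp8 and Mmp13 (collagenases), Mmp21, Mmp25, Mmp20, Mmp10, Mmp3 and Mmp1b. Mmp24 had 178 counts over all 24 libraries, Mmp25 110, Mmp8 101, Mmp21 98, Mmp2 84, Mmp13 46, Mmp16 39 and Mmp20 18, whereas Mmp10 had 3, Mmp3 had 2 and Mmp1b had 1. Mmp2, the gelatinase that MMP14 activates, was at 0.0198, 0.0551 and 0.201 CPM in non-stretched knockdown cells, against 0, 0.0562 and 0.084 CPM in non-stretched control cells. In stretched cells Mmp2 was at 0.0449, 0.0725 and 0.1 CPM with knockdown, against 0.0259, 0.0972 and 0.339 CPM in control cells. The Mmp2 groups overlapped throughout, and a difference was not detectable at this depth. With no filter on low counts, Mmp24, Mmp13 and Mmp8, named after their values were seen, were called for knockdown in both comparisons, Mmp24 and Mmp13 higher and Mmp8 lower. Summed over 6 libraries, non-stretched knockdown cells had 60 counts of Mmp24, 15 of Mmp13 and 11 of Mmp8, against 28, 0 and 40 in non-stretched control cells. Stretched knockdown cells had 62, 26 and 12, against 28, 5 and 38 in stretched control cells. Mmp24 passed the filter in most fits that left out 1 library, for example without stretched control replicate 5, where it had log2 changes of 1.09 ± 0.34 and 0.92 ± 0.35 (adjusted p = 0.00722 and 0.0286). Its highest libraries, at 0.276 to 0.414 CPM, were all of knockdown cells, and no control library was above 0.164 CPM. Mmp24 thus entered those fits only through the groups where it was high, and their p-values are no separate support for a rise.

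Among ADAMs, Adam28 had 170 and Adam30 166 counts in all, Adam12 (meltrin alpha) and Adam5 64 each, and Adam3 25. Adam2, Adam7, Adam6b, Adam23, Adam18, Adam25, Adam26a, Adam39 and Adam6a had 1 to 5. Many of these are known from testis. Of the ADAMTS genes, Adamts13 (the protease of von Willebrand factor) had 88 counts, and Adamts16, Adamts18, Adamts19 and Adamts20 had 1 to 4.

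With MuRF1 knockdown, more members fell than rose. Without stretch, 22 of the 46 tested members fell and 8 rose, which is 65.2% called, where 57.8% of all 14411 tested genes were called (28.0% rose and 29.7% fell). With stretch, 22 fell and 7 rose, which is 63.0% called, where the share over all genes was 52.0% (25.1% rose and 26.9% fell). The share called is thus not far above that of all genes. Called members beyond 2-fold numbered 12 without stretch and 10 with stretch, which is 26.1% and 21.7%, where 5.63% and 4.57% of all genes met the same rule. Some of these members were low, with a mean log2 CPM of -2.17 (Adam21) to 0.20 (Timp4). They were Adam1b and Adam21 without stretch, and Mmp9, Mmp27 and Timp4 in both comparisons. Adam1b, Adam21 and Mmp9 passed the filter on low counts mainly through knockdown libraries, and Mmp27 mainly through control libraries, the groups where each was high. The counts of called members are thus partly set by the filter. The median absolute log2 change was 0.40 and 0.44 over the members, beside 0.20 and 0.17 over all genes. The median signed change was -0.19 and -0.09, beside 0.01 and 0.00. Calls are from edgeR's quasi-likelihood test with Benjamini-Hochberg adjustment over all tested genes, at an adjusted p under 0.05.

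The comparisons with and without stretch share no library, and 42 of the 46 members had the same sign in both (91.3%, where all genes had 86.3%), with 26 called in both in the same direction and none in opposite directions. Groups of 6 libraries did not overlap for 22 members without stretch and 18 with stretch, where this held for 37.8% and 31.9% of all genes. TMM scaling sets the middle of the gene distribution near 0. Under scaling by library totals the median of all genes moved up by 0.13 without and 0.11 with stretch on the log2 scale, and 72.1% and 72.6% of all calls were rises in place of 48.5% and 48.3%. The members then stood at 11 up and 17 down without stretch, and 10 up and 16 down with stretch.

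**Figure D2:**
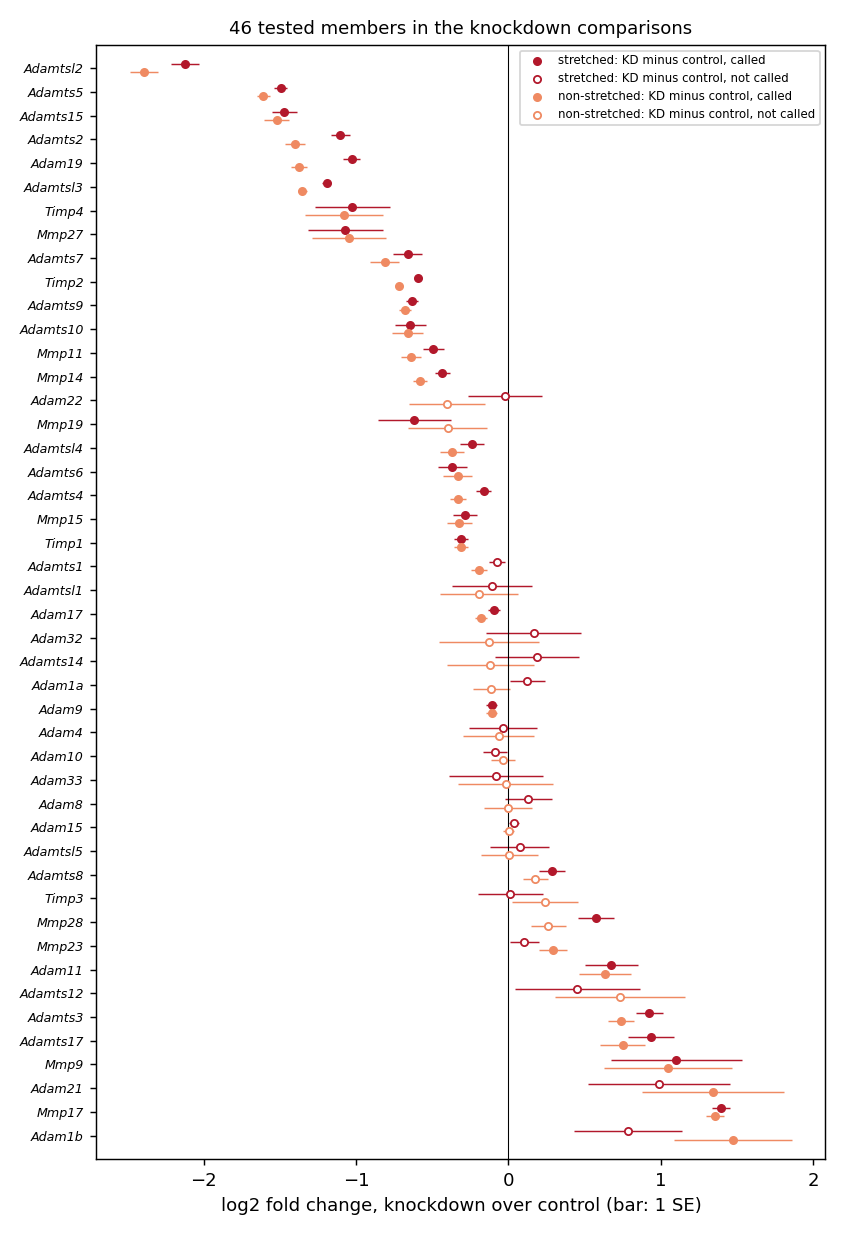
Log2 fold change of knockdown over control for each of the 46 tested members (bars: 1 SE), in stretched (dark red) and non-stretched cells (orange), with filled points past the adjusted threshold. The list runs from Adamtsl2 at -2.39 without stretch to Adam1b at 1.48, and both colours lie side by side for most genes.

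Markers of cell types moved with the knockdown as well. Their counts are to be read beside all tested genes, of which 29.7% fell and 28.0% rose without stretch, and 26.9% fell and 25.1% rose with stretch. Of 10 cardiomyocyte markers, 9 fell in each comparison, and their summed level was 1111 to 1167 CPM in stretched and 957 to 1044 CPM in non-stretched knockdown cells, against 2079 to 2567 CPM in stretched and 2160.0 to 2431 CPM in non-stretched control cells. Of 8 fibroblast markers 5 could be tested, and Col1a1, Col3a1, Dcn and Postn fell while Pdgfra did not pass. Their sum was 95.5 to 101 and 79.9 to 97.2 CPM in stretched and non-stretched knockdown cells, against 216 to 243 and 244 to 250 CPM in the control groups. Col1a1, at 141 to 150 CPM in non-stretched control cells, and Col3a1, at 86.9 to 92.2 CPM, made up most of that sum, while Lum, Tcf21 and Thy1 of the same list were too low to test, at 0 to 0.109 CPM over all groups. Smooth muscle markers summed to 1863 to 1955 and 1738 to 1886 CPM in the knockdown groups, against 2507 to 2904 and 2531 to 2759.7 CPM in the control groups, with Acta2, Tagln and Des lower (3 of 5), and Myh11 higher with stretch.

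Endothelial, macrophage and male germ cell lists summed to at most 10.2, 3.94 and 2.95 CPM in any library, and no gene of these lists found in the table was at 0 in every library. Of them, Tek fell in both comparisons, Cd68 rose in both, Itgam and Zpbp rose without stretch. The part of these markers in the results below was not tested. In bulk RNA, fewer cells of a type and less RNA per cell cannot be told apart.

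Among the genes before whose start RefSeq gives sequence are Mmp14, Adamts2 and Adamtsl2, whose levels ran closely together, Adamtsl3, the member with the smallest adjusted p, Adamts3, which went the other way, and Adamts1, which changed with stretch. Their 250 bases before the RefSeq start (GRCm38.p6) are shown to let these differences be seen beside the sequence. They are chr14:54431348-54431597, chr11:50601835-50602084, chr2:27079129-27079378 and chr7:82335444-82335693 on the plus strand, and chr5:89883335-89883584 and chr16:85803114-85803363 on the minus strand, in the order printed. Capitals mark matches on either strand to 4 short motifs, and matches of different motifs were allowed to overlap. The GC box was searched as GGGCGG and the CCAAT box by the letters of its name. For the TATA box the letters were TATAAA, and for the AP-1 site, bound by Fos and Jun proteins, they were TGANTCA with N for any base.
Mmp14: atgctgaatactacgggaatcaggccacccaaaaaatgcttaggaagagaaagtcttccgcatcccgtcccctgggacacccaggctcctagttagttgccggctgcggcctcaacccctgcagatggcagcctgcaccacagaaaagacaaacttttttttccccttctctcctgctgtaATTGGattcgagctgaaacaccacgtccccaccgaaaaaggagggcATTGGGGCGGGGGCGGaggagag
Adamts2: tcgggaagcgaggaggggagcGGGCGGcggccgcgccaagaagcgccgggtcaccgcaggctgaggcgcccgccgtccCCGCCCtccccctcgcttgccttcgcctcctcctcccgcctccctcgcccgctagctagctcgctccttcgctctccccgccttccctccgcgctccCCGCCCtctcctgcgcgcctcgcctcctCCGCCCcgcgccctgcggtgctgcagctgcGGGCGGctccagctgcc
Adamtsl2: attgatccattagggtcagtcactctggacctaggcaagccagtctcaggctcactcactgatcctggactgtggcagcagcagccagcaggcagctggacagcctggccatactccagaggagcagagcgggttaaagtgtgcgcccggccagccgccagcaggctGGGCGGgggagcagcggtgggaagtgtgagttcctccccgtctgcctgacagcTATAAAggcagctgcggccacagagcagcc
Adamtsl3: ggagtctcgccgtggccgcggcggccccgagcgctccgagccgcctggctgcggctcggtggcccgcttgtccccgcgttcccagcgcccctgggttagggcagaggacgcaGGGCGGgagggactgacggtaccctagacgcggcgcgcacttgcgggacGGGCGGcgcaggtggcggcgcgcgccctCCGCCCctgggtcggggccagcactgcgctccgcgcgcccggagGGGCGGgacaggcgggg
Adamts3: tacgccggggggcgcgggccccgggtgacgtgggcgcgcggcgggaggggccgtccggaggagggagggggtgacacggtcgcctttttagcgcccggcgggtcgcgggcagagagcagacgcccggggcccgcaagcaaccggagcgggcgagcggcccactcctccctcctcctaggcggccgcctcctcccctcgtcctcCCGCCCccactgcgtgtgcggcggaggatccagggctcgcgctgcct
Adamts1: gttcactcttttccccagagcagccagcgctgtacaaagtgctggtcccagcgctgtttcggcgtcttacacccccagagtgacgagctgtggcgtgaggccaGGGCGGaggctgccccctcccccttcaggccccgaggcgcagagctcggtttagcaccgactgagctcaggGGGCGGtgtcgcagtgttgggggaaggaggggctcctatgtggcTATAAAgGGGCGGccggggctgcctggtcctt

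A RefSeq start was found for 30 of the 46 tested members. A GC box lay in a window of 20 of these 30 (66.7%), close to the 61.4% of the 10541 tested genes with a RefSeq start, counted the same way by gene. CCAAT boxes were in 9 members (30.0%, where tested genes had 40.3%), TATA boxes in 2, Adamtsl2 and Adamts1 (6.67% and 8.76%), and AP-1 sites in 1, Adam19, at 1 of its 3 starts (3.33% and 5.80%). Over all 32851 RefSeq windows, which include genes too low to test here, the shares were 32.7% for the GC box, 33.8% for CCAAT, 12.4% for TATA and 6.75% for AP-1. Both the falling Adamts2, with 5 GC boxes, and the rising Adamts3, with 1, had a base composition of 78.0% G and C. These are matches of letters and not sites shown to be used.

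Of the inhibitors, 3 of 4 TIMPs fell with the knockdown in each comparison, where 29.7% of all tested genes fell without and 26.9% with stretch. Timp2, which blocks MMP14 and also helps it to activate pro-MMP2, was at 132, 134 and 141 CPM in non-stretched knockdown cells, against 216, 222 and 228 CPM in non-stretched control cells. In stretched cells it was at 133, 139.8 and 145 CPM with knockdown, against 203, 209 and 218 CPM in control cells. No knockdown library reached the lowest control library. Timp2 fell by 0.72 ± 0.03 (SE) on the log2 scale without stretch and by 0.59 ± 0.03 with stretch (adjusted p = 3.86e-18 and 3.34e-16).

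Timp1, a secreted inhibitor of most MMPs, was at 10.1, 10.6 and 11.3 CPM in non-stretched knockdown cells, against 12.6, 13.1 and 14.3 CPM in non-stretched control cells. Its stretched values were 9.92, 11.0 and 11.4 CPM with knockdown, against 12.5, 13.4 and 14.6 CPM in control cells. The groups again stood apart, and Timp1 fell by 0.31 ± 0.05 in each comparison (adjusted p = 1.74e-06 without and 1.97e-06 with stretch).

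Timp4, the TIMP best known from heart, was low. It had 0.379, 0.6 and 1.05 CPM in non-stretched knockdown cells, against 1.1, 1.24 and 1.7 CPM in non-stretched control cells, which did not overlap. With stretch it had 0.514, 0.805 and 1.13 CPM in knockdown cells, against 1.01, 1.59 and 3.47 CPM in control cells. These ranges overlapped, and the highest value was control replicate 5. The log2 change was -1.08 ± 0.26 without stretch (adjusted p = 0.000794) and -1.02 ± 0.25 with stretch (adjusted p = 0.00101), and -0.75 ± 0.20 without that replicate (adjusted p = 0.0025). Timp4 lies on the opposite strand to Syn2 and shares exon positions with it. Syn2 itself had log2 changes of -1.62 and -1.47, and whether the counting used strand is not given in the sources used here, so the Timp4 value is uncertain.

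Timp3, which binds to matrix and inhibits ADAM17 among others, was at 0.43, 0.655 and 0.764 CPM in non-stretched knockdown cells, against 0.392, 0.477 and 0.875 CPM in non-stretched control cells. In stretched cells it was at 0.38, 0.584 and 0.904 CPM with knockdown, against 0.412, 0.605 and 0.72 CPM in control cells. All 4 groups overlapped, and no test was passed (log2 changes 0.24 ± 0.21 and 0.01 ± 0.22, adjusted p = 0.353 and 0.967). It too shares exon positions with an opposite-strand gene, Syn3.

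**Figure D3:**
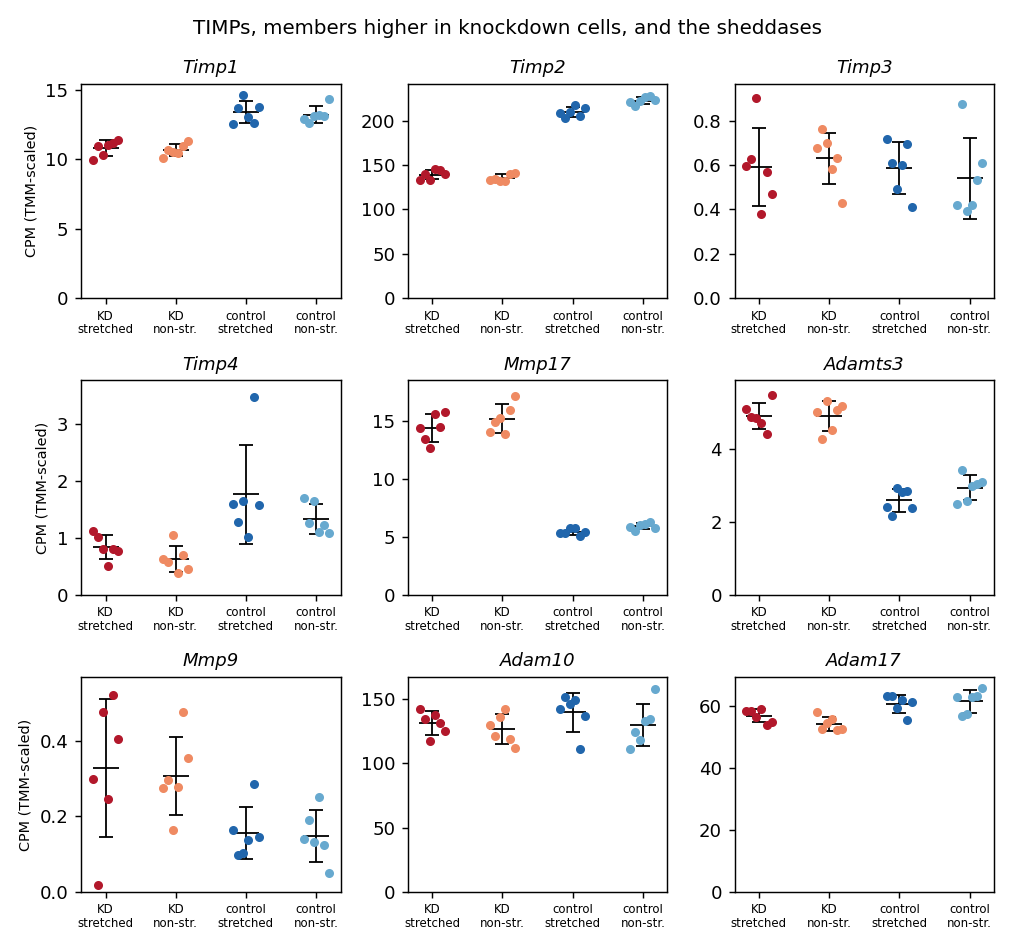
CPM after TMM scaling in every library (points; bar: mean ± SD of 6) for the 4 TIMPs, for Mmp17, Adamts3 and Mmp9, which were higher in knockdown (KD) cells, and for Adam10 and Adam17. Timp1 and Timp2 separate by knockdown in both stretch states, Timp3 overlaps, and the 3.47 CPM point of Timp4 is stretched control replicate 5.

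Membrane-type MMPs moved in opposite directions. Mmp14 (MT1-MMP), a collagenase at the cell surface, was at 81.8, 97.2 and 103 CPM in non-stretched knockdown cells, against 138, 142 and 147 CPM in non-stretched control cells. With stretch Mmp14 was at 94.5, 105 and 108 CPM in knockdown cells, against 131, 136 and 158 CPM in control cells. The groups stood apart both times, with falls of 0.58 ± 0.05 and 0.43 ± 0.05 on the log2 scale (adjusted p = 4.62e-11 and 1.51e-08). Mmp15 (MT2-MMP) had log2 changes of -0.32 and -0.29, past the threshold in both comparisons but not under scaling by library totals.

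Mmp17 (MT4-MMP), which is held in the membrane by a lipid anchor, did the reverse. It was at 13.9, 15.1 and 17.2 CPM in non-stretched knockdown cells, against 5.52, 5.97 and 6.25 CPM in non-stretched control cells. Stretched cells had 12.7, 14.4 and 15.8 CPM with knockdown, against 5.11, 5.42 and 5.77 CPM in control cells. Every knockdown library lay above every control library, and Mmp17 rose by 1.35 ± 0.06 without and 1.39 ± 0.06 with stretch (adjusted p = 4.98e-17 and 6.82e-17).

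Mmp11 (stromelysin-3), a secreted MMP that furin activates before release, was at 15.4, 18.3 and 20.6 CPM in non-stretched knockdown cells, against 27.5, 28.8 and 29.6 CPM in non-stretched control cells. With stretch it was at 14.9, 16.9 and 18.2 CPM in knockdown cells, against 20.4, 23.7 and 26.8 CPM in control cells. The groups did not overlap, and Mmp11 fell by 0.64 ± 0.07 and 0.49 ± 0.07 (adjusted p = 4.57e-09 and 7.45e-07). The opposite-strand gene Chchd10, which shares exon positions with Mmp11, also had lower values (log2 changes -0.76 and -0.66).

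Mmp9 (gelatinase B) was near the detection limit, with 1 to 24 counts per library, and passed the filter mainly through knockdown libraries. It was at 0.164, 0.288 and 0.475 CPM in non-stretched knockdown cells, against 0.0487, 0.135 and 0.252 CPM in non-stretched control cells. Its stretched values were 0.0185, 0.352 and 0.522 CPM with knockdown, against 0.0973, 0.141 and 0.286 CPM in control cells. The groups overlapped, and the rises of 1.05 ± 0.42 and 1.10 ± 0.43 passed only narrowly (adjusted p = 0.035 and 0.033) and were lost with limma-voom (1.07 and 0.61, adjusted p = 0.0954 and 0.382), with the authors' factors, and when any of 6 libraries without or 7 with stretch was left out. Among the other MMPs, Mmp27 fell (log2 changes -1.05 and -1.07) at under 1 CPM, and passed the filter mainly through control libraries. Mmp19 fell past the threshold with stretch only (-0.62, and -0.40 without), a call lost when stretched knockdown replicate 2 or 6 or stretched control replicate 1, 3 or 5 was left out (-0.60 to -0.49). The Mmp19 call was also lost under the authors' factors (-0.55, adjusted p = 0.07) and under library totals (-0.51, adjusted p = 0.0762). Mmp23 rose without stretch (0.29, and 0.10 with), and Mmp28 (epilysin) rose with stretch (0.58, and 0.26 without). No interaction was called for Mmp19, Mmp23 or Mmp28, so their changes were not shown to differ between stretch states.

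ADAMs had the lowest share of called members of the 5 families, with 6 of 14 called without stretch and 4 of 14 with stretch. These shares, 42.9% and 28.6%, lay below the 57.8% and 52.0% of all tested genes. Adam10, the sheddase of Notch and cadherins, was at 112, 126 and 143 CPM in non-stretched knockdown cells, against 111, 129 and 158 CPM in non-stretched control cells. In stretched cells it was at 117, 133 and 143 CPM with knockdown, against 111, 144 and 151 CPM in control cells. All groups overlapped, and no difference was called (log2 changes -0.04 ± 0.08 and -0.09 ± 0.08, adjusted p = 0.724 and 0.363). Without stretched control replicate 5, its lowest library, the second value was -0.14 (adjusted p = 0.101).

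Adam17, the sheddase of TNF and of epidermal growth factor receptor ligands, was at 52.3, 53.6 and 57.9 CPM in non-stretched knockdown cells, against 56.7, 62.9 and 65.9 CPM in non-stretched control cells. With stretch it was at 53.9, 57.5 and 59.0 CPM in knockdown cells, against 55.4, 61.5 and 63.4 CPM in control cells. The ranges overlapped, and the falls were small, 0.18 ± 0.04 without stretch (adjusted p = 0.000266) and 0.10 ± 0.04 with stretch (adjusted p = 0.0435). The call with stretch was lost when any of 9 single libraries was left out (-0.09 to -0.08). It was also lost with DESeq2 (adjusted p = 0.052), with DESeq2's size factors (0.0615), with the authors' factors (0.0992), with no filter (0.144) and when only the groups compared were fitted (0.0556). Under scaling by library totals the stretched difference of Adam17 changed sign to 0.02 and neither was called. Adam9, another broadly expressed sheddase, fell by 0.11 in each comparison but had a difference of 0.02 and 0.01 under library totals, neither called, and its call without stretch was lost when stretched knockdown replicate 1 or non-stretched knockdown replicate 4 was left out (-0.08). Adam17 shares exon positions with the opposite-strand Iah1, which rose.

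Adam19 (meltrin beta), which is needed for heart valve and septum formation in mice, was the ADAM with the firmest fall. It was at 8.51, 10.5 and 10.6 CPM in non-stretched knockdown cells, against 24.8, 26.1 and 26.5 CPM in non-stretched control cells. Stretched cells had 10.6, 11.5 and 12.4 CPM with knockdown, against 21.3, 22.8 and 25.8 CPM in control cells. The groups were far apart, with falls of 1.37 ± 0.05 and 1.03 ± 0.05 (adjusted p = 6.32e-18 and 3.58e-15).

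The brain-enriched Adam11 rose in both comparisons (log2 changes 0.63 and 0.67). Adam1b and Adam21, both known from testis, rose without stretch (1.48 and 1.34) and had 0.79 and 0.99 with stretch, not called. Each was under 1 CPM, and without non-stretched knockdown replicate 3 the Adam21 call was lost (1.01). The highest non-stretched control library was at 0.2 CPM for each, and both passed the filter mainly through knockdown libraries, where they were high. These rises are thus partly set by the filter, and neither gene was kept for testing when only the non-stretched groups were fitted. No call was made in either comparison for Adam15, the broadly expressed metargidin, which had log2 changes of 0.00 and 0.04, or for Adam8, Adam22, Adam32, Adam33, Adam4 and Adam1a, whose changes lay between -0.40 and 0.16.

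Of 14 tested ADAMTS proteases, 9 fell and 2 rose without stretch, and 8 fell and 3 rose with stretch. That is 78.6% called in each, where 57.8% and 52.0% of all tested genes were called. Adamts5 (aggrecanase-2), which cuts versican and aggrecan, was at 39.4, 42.7 and 44.3 CPM in non-stretched knockdown cells, against 124, 128 and 133 CPM in non-stretched control cells. With stretch it was at 42.3, 47.0 and 50.4 CPM in knockdown cells, against 118, 135 and 138 CPM in control cells. No libraries overlapped, and Adamts5 fell by 1.61 ± 0.04 and 1.49 ± 0.04 (adjusted p = 1.46e-21 and 1.33e-20).

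Adamts15, also a protease of versican, was at 4.42, 5.00 and 5.96 CPM in non-stretched knockdown cells, against 14.1, 14.6 and 15.7 CPM in non-stretched control cells. In stretched cells it was at 4.72, 5.00 and 5.74 CPM with knockdown, against 12.5, 13.5 and 18.9 CPM in control cells. The groups stood apart, and Adamts15 fell by 1.52 ± 0.08 and 1.47 ± 0.08 (adjusted p = 6.52e-15 and 2.21e-14), and by 1.38 with stretch once control replicate 5 was left out. Its neighbour Adamts8, 20110 bases away on chromosome 9 and on the other strand, had log2 changes of 0.17 (not called) and 0.29 (called).

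Adamts9, which cuts versican and is related to worm Gon-1, was at 37.3, 41.5 and 43.1 CPM in non-stretched knockdown cells, against 64.0, 65.2 and 68.3 CPM in non-stretched control cells. Its stretched values were 41.4, 42.5 and 46.9 CPM with knockdown, against 61.7, 67.7 and 71.8 CPM in control cells. The groups did not overlap, and Adamts9 fell by 0.68 ± 0.04 and 0.63 ± 0.04 (adjusted p = 6.31e-15 and 3.87e-14). Adamts4 (aggrecanase-1) had log2 changes of -0.33 and -0.16, both called, the second not under library totals (-0.05), and Adamts1, described with stretch below, -0.19 (called, but not under library totals, at -0.06) and -0.08 (not called).

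The procollagen proteases split. Adamts2, which removes the amino propeptide of fibrillar procollagens, was at 12.9, 13.9 and 15.0 CPM in non-stretched knockdown cells, against 34.6, 36.1 and 40.3 CPM in non-stretched control cells. With stretch Adamts2 was at 14.6, 16.5 and 17.0 CPM in knockdown cells, against 30.2, 34.0 and 42.0 CPM in control cells. The groups stood apart, and Adamts2 fell by 1.40 ± 0.06 and 1.10 ± 0.06 (adjusted p = 1.15e-16 and 2.4e-14).

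Its relative Adamts3, which also activates the lymphatic growth factor VEGF-C, was at 4.28, 5.06 and 5.33 CPM in non-stretched knockdown cells, against 2.5, 3.03 and 3.45 CPM in non-stretched control cells. Stretched cells had 4.43, 4.88 and 5.5 CPM with knockdown, against 2.16, 2.62 and 2.95 CPM in control cells. Here every knockdown library was the higher one, and Adamts3 rose by 0.74 ± 0.09 and 0.92 ± 0.09 (adjusted p = 3.17e-08 and 9.35e-10). Adamts14, the third of these proteases, was under 1 CPM and not called (-0.12 and 0.19). In the promoter windows printed above, the opposite movers Adamts2 and Adamts3 differ in GC boxes but neither holds an AP-1, CCAAT or TATA match.

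Of the ADAMTS proteases linked to microfibrils, Adamts10 fell (log2 changes -0.66 and -0.64), as did Adamts6 (-0.33 and -0.37), whereas Adamts17 rose (0.75 and 0.94) with groups that did not overlap. Adamts7, a protease of cartilage oligomeric matrix protein, fell (-0.81 and -0.66), and the related Adamts12 was not called at under 1 CPM (0.73 and 0.45). Under the authors' own factors the Adamts17 calls were lost, and under library totals that of Adamts6 without stretch. Adamts7 shares exon positions with the opposite-strand Tbc1d2b, which rose by 0.48 and 0.57.

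The member with the smallest adjusted p and the one with the largest change were both protease-free relatives. Adamtsl3 (punctin-2) was at 80.5, 84.3 and 88.8 CPM in non-stretched knockdown cells, against 211, 216 and 219 CPM in non-stretched control cells. In stretched cells it was at 88.4, 91.9 and 95.1 CPM with knockdown, against 202, 210.3 and 217 CPM in control cells. The groups lay far apart, and Adamtsl3 fell by 1.35 ± 0.03 and 1.19 ± 0.03 (adjusted p = 1.26e-23 and 2.94e-22).

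Adamtsl2, a fibrillin-binding protein whose human gene is mutated in geleophysic dysplasia, was at 1.97, 2.23 and 2.57 CPM in non-stretched knockdown cells, against 10.1, 12.1 and 13.5 CPM in non-stretched control cells. With stretch it was at 2.21, 2.47 and 2.76 CPM in knockdown cells, against 8.78, 10.4 and 13.5 CPM in control cells. No libraries overlapped, and the falls of 2.39 ± 0.09 without and 2.12 ± 0.09 with stretch were the largest changes among the 46 (adjusted p = 4.22e-18 and 7.05e-17). Adamtsl4, another fibrillin binder, had log2 changes of -0.37 and -0.24, both called. The second was lost under library totals (-0.13) and the authors' factors (-0.20, adjusted p = 0.0798), and was -0.15 without stretched control replicate 5 (adjusted p = 0.0266). Adamtsl1 and Adamtsl5 were not called, at -0.19 to 0.07.

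**Figure D4:**
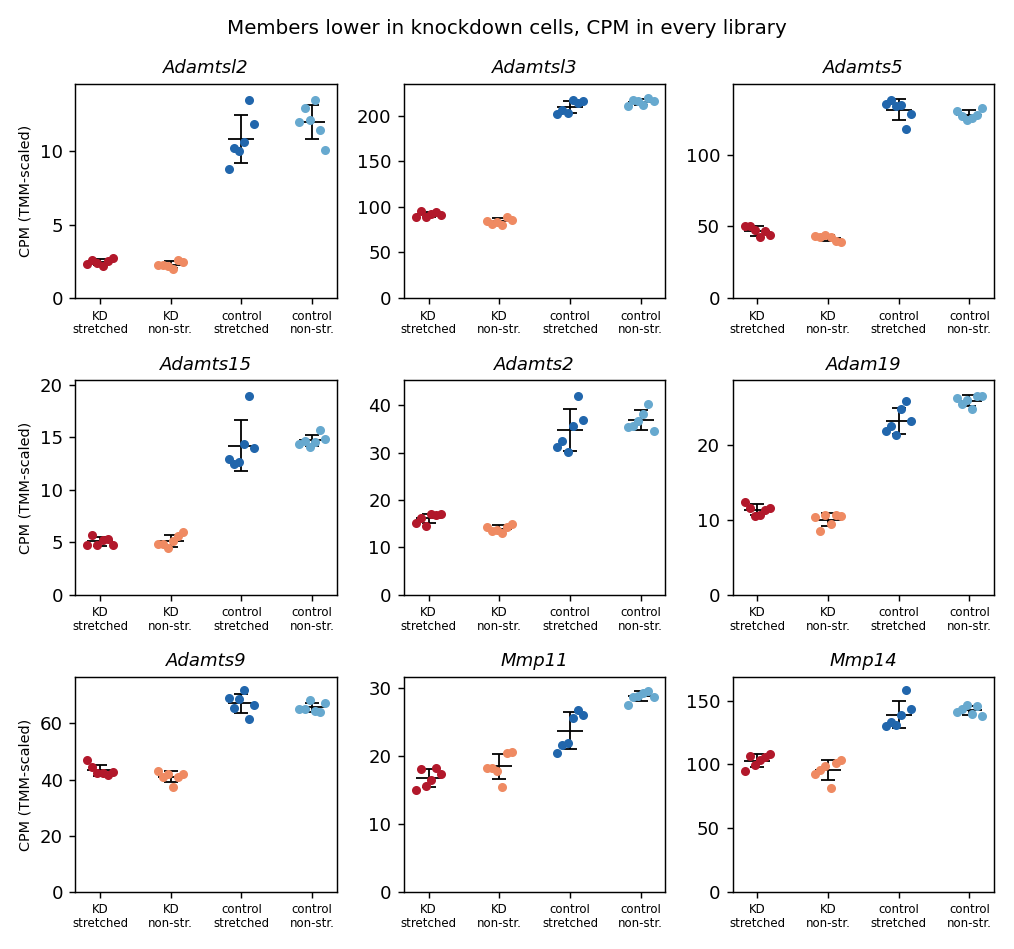
CPM after TMM scaling in every library (points; bar: mean ± SD of 6) for 9 members that were lower in knockdown (KD) than in control cells. In all 9 panels the 6 knockdown libraries lie below the 6 control libraries of the same stretch state, by the most for Adamtsl2, with 2.23 against 12.1 CPM as non-stretched medians.

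Genes around these proteases changed as well, and their counts are to be read against all tested genes, of which 28.0% rose and 29.7% fell without stretch, and 25.1% rose and 26.9% fell with stretch. Of the proprotein convertases that remove propeptides, 3 of 7 could be tested and Furin fell, by 0.71 ± 0.04 without and 0.59 ± 0.04 with stretch. Among other inhibitors and binders, 6 of 8 tested fell and 1 rose without stretch, and 5 fell and 1 rose with stretch. The membrane-anchored MMP inhibitor Reck had log2 changes of -0.46 and -0.29, the matrix protein Sparc -0.83 and -0.75, and Thbs2, which clears MMP2, -0.88 and -0.73. Cst3, a cysteine protease inhibitor, had -0.81 and -0.76, and Bsg, the surface inducer of MMPs, -0.37 and -0.32. Thbs1 had -0.62 (called) and -0.16 (not called), with no interaction called (adjusted p = 0.177), and Wfikkn2, a multidomain protein with inhibitor modules, rose (0.70 and 0.53).

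In plasminogen activation, 4 of 7 tested genes rose in each comparison, and 2 fell without and 1 with stretch. The list summed to 164 to 174 CPM in stretched and 155 to 173 CPM in non-stretched knockdown cells, against 189.6 to 216 and 199 to 215 CPM in the control groups. The activators Plat (0.22 and 0.28) and Plau (0.44 and 0.46) and the receptors Plaur (0.20 and 0.27) and Plgrkt (0.23 and 0.16) rose, while the inhibitor Serpine2 fell (-0.94 and -0.82). Among 6 tested astacins and membrane metalloproteases, Ece2 rose (0.51 and 0.60) and Mme, neprilysin, fell (-0.52 and -0.57) in both comparisons. Bmp1 (-0.13 and -0.05), Ece1 (-0.25 and -0.05) and Tll1 (0.53 and -0.06) were called in the first comparison and not in the second, and no interaction was called for them (adjusted p = 0.661, 0.668 and 0.473).

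Of 7 tested carriers and partners of ADAM10 and ADAM17, 4 fell and 2 rose in each comparison. Rhbdf2, which brings ADAM17 to the surface, fell (-0.42 and -0.29), as did its partner Frmd8 (-0.26 and -0.19). Among the tetraspanins that guide ADAM10, Tspan14 (-0.34 and -0.34) and Tspan17 (-0.52 and -0.48) fell, whereas Tspan15 (0.22 and 0.19) and Tspan33 (0.75 and 0.79) rose.

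Surface substrates of ADAMs divided, with 8 up and 7 down of 15 tested without stretch, and 8 up and 6 down with stretch. The rises were Hbegf (0.96 and 0.96), Notch1 (0.97 and 1.07), Egf (0.75 and 0.75), Il6ra (0.57 and 0.66), Cd44 (0.53 and 0.43), Btc (0.48 and 0.39), Tgfa (0.23 and 0.33) and Notch3 (0.14 and 0.27). The falls were Cdh2 (-1.03 and -0.91), Sdc4 (-0.59 and -0.51), App (-0.50 and -0.42), Notch2 (-0.38 and -0.24), Tnfrsf1a (-0.15 and -0.11) and Sdc1 (-0.09 and -0.10), and Nrg1 had -1.03 (called) and -0.26 (not called), with no interaction called (adjusted p = 0.453).

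Matrix substrates fell in the main, with 11 of 14 tested down and 2 up in each comparison. Col1a2 (-2.31 and -1.27), Col3a1 (-1.71 and -1.55), Col1a1 (-1.40 and -1.12), Fn1 (-0.87 and -0.70), Col4a1 (-0.73 and -0.60) and Col4a2 (-0.70 and -0.58) fell. So did Eln (-0.66 and -0.64), Hspg2 (-0.65 and -0.49), Lamb1 (-0.43 and -0.31), Lamc1 (-0.38 and -0.30) and Vcan (-0.36 and -0.37), the versican that Adamts5 cuts. Lama4 (0.79 and 1.08) and Fbn1 (0.19 and 0.21) rose. Col1a1 and Col3a1 are also in the fibroblast list.

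Stretch for 60 min moved few members. In knockdown cells 6 of 46 rose and none fell, 13.0% called, where 8.93% of all genes were called, 5.32% up and 3.61% down. In control cells 2 rose and 1 fell, 6.52% called, where 5.95% of all genes were called, 2.55% up and 3.39% down. The share of the members in control cells is close to that of all genes, of whose calls 42.9% were rises, or 64.5% under library totals. Stretched and non-stretched libraries did not overlap for 2 members in knockdown cells and 2 in control cells, where 5.43% and 3.19% of all genes did not. Of the marker lists, stretch raised Myh6, Ryr2, Actc1, Ttn and Cd68 in knockdown cells and Actc1, Cd68 and Itgam in control cells, and their part in the results was not tested.

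Adamts1, a secreted protease of versican and aggrecan, was called in both. It was at 54.3, 57.6 and 61.4 CPM in stretched knockdown cells, against 45.1, 46.8 and 48.9 CPM in non-stretched knockdown cells. Control cells had 57.0, 59.9 and 66.4 CPM with stretch, against 46.5, 53.1 and 63.6 CPM without. The knockdown groups stood apart and the control groups overlapped, and Adamts1 rose by 0.30 ± 0.05 in knockdown (adjusted p = 0.00051) and 0.18 ± 0.05 in control cells (adjusted p = 0.0405). The call in control cells was lost in 10 of 34 alternatives, among them without stretched replicate 1, 3, 4 or 6 or non-stretched replicate 2, 3, 4 or 5 of the control cells (0.14 to 0.19). A difference between both stretch responses of Adamts1 was not called (interaction 0.12 ± 0.08, adjusted p = 0.668). Its window printed above holds 3 GC boxes and 1 TATA box, and no AP-1 match.

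Adam1a, known as a fertilin subunit gene of the testis, rose more. It was at 11.0, 12.3 and 14.1 CPM in stretched knockdown cells, against 6.59, 7.78 and 9.53 CPM in non-stretched knockdown cells. In control cells it was at 10.4, 11.5 and 12.6 CPM with stretch, against 5.04, 8.89 and 10.2 CPM without. No stretched library overlapped a non-stretched one of the same cells, with rises of 0.67 ± 0.12 (adjusted p = 0.000445) and 0.43 ± 0.12 (adjusted p = 0.0281). The call in control cells was lost without stretched replicate 1, 3 or 6 or non-stretched replicate 3 or 5 (0.40 to 0.43). Adam1a shares exons on the same strand with Mapkapk5, so reads could be divided between them and its value is uncertain. Mapkapk5 was not called in either stretch comparison.

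The other 4 rises in knockdown cells were small, with Adamts2 at 0.21 ± 0.07 (adjusted p = 0.0464), Adam19 at 0.18 ± 0.06 (0.0409), Adamts5 at 0.16 ± 0.04 (0.02) and Adamtsl3 at 0.12 ± 0.03 (0.00558). In control cells the same genes had -0.09, -0.16, 0.04 and -0.04, none called. The Adam19 value in control cells was called as a fall with DESeq2, with limma-voom, and without stretched control replicate 4 or 5 or non-stretched knockdown replicate 2. Without stretched control replicate 5 it was -0.19 (adjusted p = 0.0115), and Adamtsl2 (-0.22, adjusted p = 0.0418) and Adamtsl4 (-0.19, adjusted p = 0.0205) were then also called, where all libraries gave -0.16 and -0.09. The call of Adamts2 was lost in 19 of 34 alternatives, 15 of them leaving out 1 library (0.19 to 0.23), and that of Adam19 in 11. Adam19 was lost without stretched knockdown replicate 1, 2, 5 or 6 or non-stretched knockdown replicate 2 or 4 (0.14 to 0.18), and Adamts5 without stretched replicate 1 or 2 or non-stretched replicate 5 or 6 (0.13 to 0.14). Under the authors' factors Adam19, Adamts2 and Adamtsl3 were all lost, which left 3 of 6. This comparison and the knockdown comparison without stretch share the non-stretched knockdown libraries, in which all 4 genes had their lowest group mean. In control cells the fall of Mmp11 by 0.28 ± 0.07 (adjusted p = 0.0113) came with groups that did not overlap, and Mmp11 in knockdown cells had -0.14 ± 0.07, not called.

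**Figure D5:**
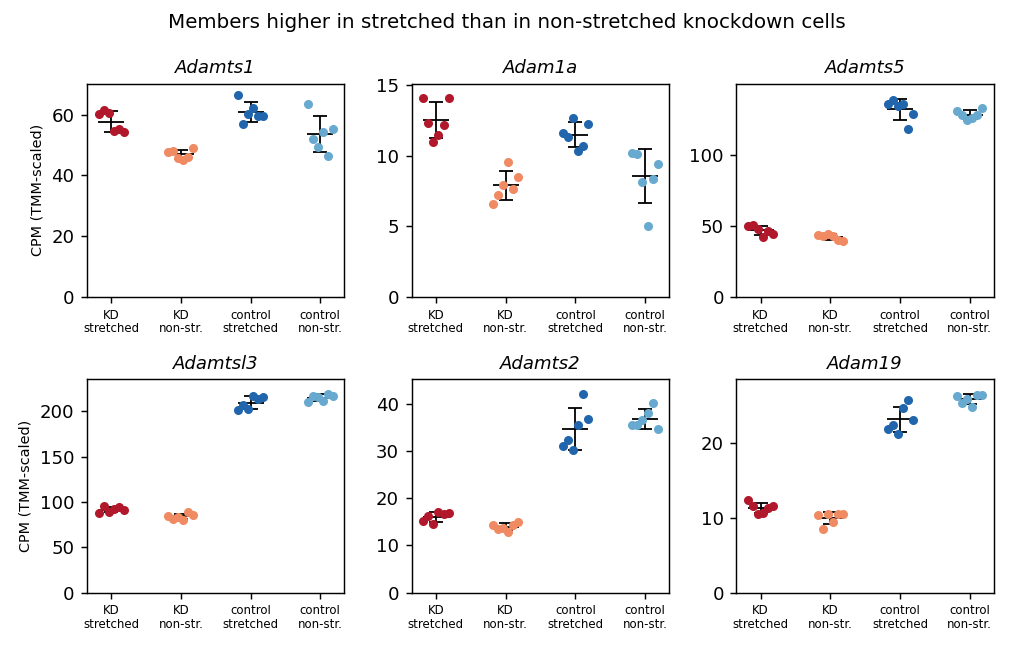
CPM after TMM scaling in every library (points; bar: mean ± SD of 6) for the 6 members that were higher in stretched than in non-stretched knockdown (KD) cells. Stretched and non-stretched knockdown libraries are apart for Adamts1 and Adam1a, and overlap for Adamts5, Adamtsl3, Adamts2 and Adam19.

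No member passed the interaction test in edgeR, where 3 genes in all did (0.0208%). At an unadjusted p under 0.05 there were 7 of 46 members, all positive, and 1355 of 14411 genes (9.40%), whose signs were not counted. These 7 were Adam19, Adamts2, Adamts4, Adamtsl2, Adamtsl3, Mmp14 and Timp2, named after their values were seen. All 7 fell with knockdown without stretch, and the interaction uses the same libraries, so their shared sign is not independent of those falls. Adam19 came nearest, with 0.34 ± 0.08 on the log2 scale (adjusted p = 0.0668), then Adamtsl3 with 0.16 ± 0.04 (adjusted p = 0.102). DESeq2 called both (adjusted p = 0.00568 and 0.0119), limma-voom called none, and edgeR with the letter of the library code (a or b, of unstated meaning, present in each group) as a block called both (0.35 and 0.16, adjusted p = 0.046 and 0.0489). Without non-stretched knockdown replicate 6, Adam19 was called (adjusted p = 0.0426), and leaving out stretched control replicate 5 gave 3 calls in edgeR, Adam19 (0.37, adjusted p = 0.026), Adamts2 (0.35, adjusted p = 0.0297) and Adamtsl3 (0.16, adjusted p = 0.0392).

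Transcription factors known from MMP and TIMP promoters changed as well. Of 14 tested, 6 rose and 1 fell in knockdown cells, and 4 rose in control cells, where 5.32% of all genes rose and 3.61% fell in knockdown and 2.55% rose in control cells. Jun (0.69 in both), Fosl2 (0.54 in knockdown and 0.35 in control cells), Srf (0.37 in both) and Jund (0.21 and 0.32) rose in each. Fosb rose in knockdown cells (2.04, and 0.17 in control cells, not called), and it passed the interaction test (1.87 ± 0.28, adjusted p = 0.018). Runx1 (0.14) rose and Nfkb1 (-0.09) fell in knockdown cells, and in control cells they had 0.06 and -0.09, not called.

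With knockdown, 6 of these factors rose and 3 fell without stretch, and 9 rose and 3 fell with stretch. Over all tested genes 28.0% rose and 29.7% fell without stretch, and 25.1% rose and 26.9% fell with stretch. Jund (0.74 and 0.63), Fosl1 (0.77 and 0.61), Jun (0.59 and 0.60), Ets1 (0.28 and 0.25), Ets2 (0.24 and 0.22) and Rela (0.12 and 0.18) rose in both, and Fosb (0.18 and 2.05), Junb (0.11 and 0.29) and Etv4 (0.14 and 0.15) were called with stretch. Fosl2 (-0.61 and -0.41), Runx1 (-0.34 and -0.25) and Srf (-0.28 and -0.28) fell. Of the other lists, stretch raised Thbs1 (1.08 in knockdown and 0.63 in control cells) and Serpinf2, the plasmin inhibitor (1.26 and 1.06). Thbs2 (0.18), Wfikkn1 (0.60), Nrg1 (0.77), Cdh2 (0.11) and Sdc4 (0.13) rose in knockdown cells, and Tgfa (-0.17), App (-0.07), Fn1 (-0.15), Col1a1 (-0.17) and Lamc1 (-0.10) fell in control cells, with no interaction called for any of them.

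Pearson correlations of log2 CPM over the 24 libraries describe which members ran together, and they mostly repeat the difference between knockdown and control groups. Mmp14 was most like Adamts2 (r = 0.978), Adamtsl2 (0.967) and Adam19 (0.961), and after subtraction of group means the values were 0.781, 0.745 and 0.46. Timp1 was most like Timp2 (0.934), Adamtsl3 (0.925) and Adamtsl2 (0.913), with 0.553, 0.265 and 0.0119 within groups. Adam17 was most like Adam9 (0.798), Adamts5 (0.75) and Adamts9 (0.744), with 0.651, 0.532 and 0.277 within groups. Adamts1 was most like Adam1a (0.614), Mmp19 (0.591) and Adamts6 (0.552), with 0.0691, 0.133 and 0.078 within groups. Adamts1 and Adamts5 lie 53060 bases apart on chromosome 16. On the log2 scale Adamts5 had knockdown changes of -1.61 and -1.49, and Adamts1 of -0.19 and -0.08.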

How the data were processed

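Poly(A) RNA of 24 HL-1 libraries had been made with a stranded kit, per the labels. The authors deposited an estimated count for each of 20351 genes. Tools listed in the submitters' processing notes are kallisto 0.44.0, DESeq2 1.18.1 and R 3.4.4, and the build is GRCm38.p6. Not given in the sources used here were the annotation, the summing to genes and the use of strand. The authors also deposited a table of normalized signal. For 1 alternative, called the authors' factors, the raw value over the normalized one served as the factor of each gene in each library. These factors thus differ between genes and are not 1 size factor per library.

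The values, rounded to whole numbers, went into edgeR 4.0.16 under R 4.3.3 (TMM scaling, filterByExpr with a minimum count of 10, robust quasi-likelihood fit, 1 coefficient per group, 20 residual degrees of freedom). Benjamini-Hochberg adjustment ran over all 14411 genes kept. The rule left 46 members. CPM used TMM scaling, and lengths and positions are from GENCODE vM21. The 60 replicate pairs all differed by more than sampling noise. Alternatives were DESeq2 1.42.0, limma-voom (limma 3.58.1), other scalings and filters, blocks and leaving out each library.

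No replicate number was used to pair samples. The members and lists were chosen with earlier results of these data known. The rule named every tested member. It gave the lowest, median and highest level for Timp1 to Timp4, Mmp2, Mmp14, Mmp9, Adam10, Adam17, Adamts1 and the 10 further members with the smallest adjusted p. Adam1a was added to these, and the genes sharing exons with members were listed, after the values were seen. Pathway genes were named where they passed in any comparison, except for a few results that are not reported here.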

Additional observations from a re-analysis of the deposited data

Results flagged for a closer look

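Within the groups of 6, the gap between the highest or lowest library and its nearest neighbour was compared with the range of the group for 19 members in 4 groups. Of 76 such sets, 5 had a gap past Dixon's 95% critical value, and chance alone flags about 1 set in 20. Stretched control replicate 5 was the library in 4 of the 5. It had the highest Timp4 at 3.47 CPM (the others 1.01 to 1.66), the highest Mmp9 at 0.286 CPM (the others 0.0973 to 0.163), the highest Adamts15 at 18.9 CPM (the others 12.5 to 14.4) and the lowest Adam10 at 111 CPM (the others 137 to 151). That library is also the shallowest and the lowest in mitochondrial share, and the part of these features in the gaps was not tested. The remaining gap was in non-stretched control replicate 6, with Timp1 at 14.3 CPM (the others 12.6 to 13.2).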

How the results depend on the processing

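Of 68 calls of a member in a comparison, 46 were kept in all of the alternatives in which the member could be tested, of 34 run. The number of members called for knockdown stayed within 1.5 times its main value in every alternative, and leaving out 1 library gave 29 to 32 without and 27 to 30 with stretch. Stretch in control cells, 3 calls, gave 5 with DESeq2 (Adam19 and Timp2 gained). Timp2, at -0.09 ± 0.03 in the main fit (adjusted p = 0.0637), was also called as a fall with the replicate number or the code letter as a block. Stretch in control cells gave 1 call when only the groups compared were fitted (Adam1a and Adamts1 lost), and 1 to 6 with 1 library left out. The lowest was without stretched control replicate 1 or 3 or non-stretched control replicate 3 or 5, and the highest without stretched control replicate 5. Stretch in knockdown cells, 6 calls, gave 3 with the authors' factors and 3 to 6 with 1 library left out, the lowest without stretched knockdown replicate 1 or 2. The interaction, with 0 calls, gave 2 with DESeq2, 2 with the code letter of the library as a block, and 0 to 3 with 1 library left out. Only library totals, a scaling chosen after seeing the data, turned a direction, for Adam9 (0.0216 without and 0.0058 with stretch) and Adam17 (0.0197 with stretch). With the replicate number as a block, stretch had 4 calls in control and 6 in knockdown cells, knockdown had 31 in cells left unstretched and 30 in stretched cells, and the interaction had 0. Genes called over all were 857 for stretch in control cells and 377 when only the groups compared were fitted, and 568 to 2023 with 1 library left out, the highest without stretched control replicate 5. For the interaction they were 3, and 122 with DESeq2. Deviations of libraries with the same number had correlations of -0.0638 to 0.137. The same number was the best match for 3 of 6 libraries between stretched knockdown and stretched control cells, and for 1 of 6 in each other pair of groups. Low correlations cannot show whether libraries with the same number shared a culture or a run. Depth limits members under 1 CPM. The causes were not tested.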
